A study of Mus musculus with 26 samples.

Results

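This account follows 59 genes of the cell division cycle in the proximal small intestine of adult mice after an inducible gene knockout in the intestinal epithelium. The genes were taken by name from a list and all 59 were found among the 55487 genes of the count table. They fell into 23 genes of DNA replication, 6 regulators of the G1/S transition, 5 D cyclins and their partner kinases, and 25 genes of mitosis. The animals were knockout mice (a floxed allele with Villin-creERT2, labelled tg) and control mice labelled wt, which in the study carried the floxed allele without the Cre. Villin-creERT2 recombines the allele only in intestinal epithelial cells and only after tamoxifen. Both genotypes, aged 8 to 12 weeks, received 5 daily tamoxifen injections, so every group shared the drug. Tissue was collected 3 days after the last injection (7 knockout and 7 control mice) or 7 days after it (6 and 6). The days held different mice, so the day cannot be told apart from a batch that coincides with it. RNA of whole tissue pieces was sequenced from the 3′ end of the transcript (QuantSeq), which gave library totals of 3720168 to 6338016 counts. Values are CPM, counts scaled to a common library total, and compare a gene between mice, not one gene with another.

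The tissue also holds cells without Cre activity. Epithelial markers such as Epcam and Vil1 were detected in every group. The summed level of 9 stomach and Brunner gland markers differed widely between pieces. It reached 43378.5 CPM in knockout mouse 1, 87662 CPM in control mouse 5 and 11607 CPM in control mouse 7 of day 3. In control mouse 2 of day 7 it reached 39614 CPM. The sum does not tell stomach from Brunner gland RNA. Pancreatic acinar markers (10 genes) summed to 29317 CPM in knockout mouse 2 of day 3. They summed to 17420 and 11118 CPM in control mice 2 and 3 of day 3 and to 14087 CPM in knockout mouse 4 of day 7. B cell and germinal centre markers summed to 77.5 CPM or more in 1 knockout and 2 control mice of day 3. At day 7 they summed to 29.0, 54.7 and 80.2 CPM in 3 knockout mice against at most 19.0 CPM in any control mouse. Counts of members are given without the libraries with B cell markers, or without control mouse 5 of day 3, where they bear on a result. The libraries with pancreatic acinar markers were not left out as a set. In whole tissue, fewer cycling cells and less RNA per cell cannot be told apart.

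Before a cell divides it copies its DNA once. In G1 the loading factors Cdc6 and Cdt1 place the MCM helicase on replication origins, D cyclins with Cdk4 or Cdk6 and cyclin E with Cdk2 inactivate the retinoblastoma family, and E2F factors then turn on the genes of DNA synthesis. After S phase a later wave of genes, among them the B cyclins, Cdk1, the Aurora and Polo kinases and the centromere proteins, prepares chromosome segregation, and the anaphase-promoting complex (APC/C) ends mitosis by destroying cyclins. In the small intestine dividing cells sit in the crypts, where stem cells and their transit-amplifying daughters renew the villus epithelium, and lymphoid follicles hold dividing B cells as well.

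The promoters of both waves are shown first because they carry the sequence difference between replication and mitosis genes. Windows from 250 bases before to 50 bases after the gene start (RefSeq, GRCm38.p6) were at hand for 45 of the 59 members. E2F sites were searched as TTTCGCGC, TTTGGCGC and TTCCCGCC, the cell cycle genes homology region (CHR) as TTTGAA or TTCGAA, and the CCAAT box as CCAAT, all on both strands. An E2F site was found in 11 of 18 replication promoters (61.1%), in 1 of 19 mitosis promoters (5.26%) and in 3.03% of 27025 promoters of all genes. A CHR was found in 3 of 18 replication promoters (16.7%), in 15 of 19 mitosis promoters (78.9%) and in 19.4% of all promoters. CCAAT boxes were common in both classes, at 13 of 18 and 17 of 19 promoters, against 37.9% of all promoters. E2F sites overlapped a CCAAT box in 2 members, and a CHR overlapped neither motif in any member. None of the 3 D cyclin and partner promoters at hand, those of Ccnd3, Cdk4 and Cdk6, held one of the 3 motifs. These matches describe letters in a window and are not evidence of binding.

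Of the promoters with matches before the gene start, 9 are printed from base -160 to base -1 on the coding strand, with every match in capitals (E2F site, CHR or CCAAT box), as examples of how the classes differ, and that of Cdk6, which rose, stands beside them without a match. The first 4 belong to replication genes. Mcm5 (chr8:75109349-75109508, plus strand) holds 2 overlapping E2F sites from base -153, and Mcm6 (chr1:128359706-128359865, minus strand) holds 3, at bases -110, -106 and -47. Rrm1 (chr7:102441535-102441694, plus strand) has 1 E2F site at base -67. Rrm2 (chr12:24708094-24708253, plus strand), the only replication member that rose, has a CCAAT box at base -50 and no match to the other motifs. E2f8 (chr7:48881597-48881756, minus strand) has a CHR at base -20. Among the mitosis genes, Ube2c (chr2:164769769-164769928, plus strand), Cdc20 (chr4:118437344-118437503, minus strand) and Kif11 (chr19:37376222-37376381, plus strand) each carry a CHR, at bases -29, -18 and -19, with a CCAAT box upstream of it. Cdk1 (chr10:69352913-69353072, minus strand) holds 2 CHRs and the single E2F site of the mitosis class, at base -131. The Cdk6 stretch is chr5:3343733-3343892 on the plus strand.
Mcm5: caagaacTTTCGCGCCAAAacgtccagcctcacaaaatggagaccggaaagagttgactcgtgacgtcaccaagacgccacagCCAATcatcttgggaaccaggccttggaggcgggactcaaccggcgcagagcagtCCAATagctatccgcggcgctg
Mcm6: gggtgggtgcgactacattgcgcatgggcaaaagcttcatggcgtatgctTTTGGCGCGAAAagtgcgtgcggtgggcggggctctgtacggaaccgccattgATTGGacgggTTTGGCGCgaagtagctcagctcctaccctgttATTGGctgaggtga
Rrm1: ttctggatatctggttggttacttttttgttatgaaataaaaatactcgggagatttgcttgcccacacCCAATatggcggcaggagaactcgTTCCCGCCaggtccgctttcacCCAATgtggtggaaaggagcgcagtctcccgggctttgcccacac
Rrm2: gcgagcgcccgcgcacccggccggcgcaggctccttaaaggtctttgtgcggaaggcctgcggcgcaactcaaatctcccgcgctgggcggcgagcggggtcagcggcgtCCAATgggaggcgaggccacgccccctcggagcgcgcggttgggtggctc
E2f8: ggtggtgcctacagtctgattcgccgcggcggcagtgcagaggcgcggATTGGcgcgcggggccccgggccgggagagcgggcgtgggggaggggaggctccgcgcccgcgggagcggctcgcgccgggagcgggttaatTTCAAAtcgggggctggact
Ube2c: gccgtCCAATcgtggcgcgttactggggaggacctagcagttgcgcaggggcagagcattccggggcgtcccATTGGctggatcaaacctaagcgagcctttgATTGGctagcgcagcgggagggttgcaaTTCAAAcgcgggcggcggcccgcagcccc
Cdc20: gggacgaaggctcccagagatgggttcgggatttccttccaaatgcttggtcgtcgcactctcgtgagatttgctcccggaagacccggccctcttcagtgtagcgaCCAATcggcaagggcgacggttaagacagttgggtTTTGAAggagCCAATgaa
Kif11: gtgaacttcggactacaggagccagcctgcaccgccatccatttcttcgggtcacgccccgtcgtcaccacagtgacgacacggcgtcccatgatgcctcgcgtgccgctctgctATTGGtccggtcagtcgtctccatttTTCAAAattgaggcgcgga
Cdk1: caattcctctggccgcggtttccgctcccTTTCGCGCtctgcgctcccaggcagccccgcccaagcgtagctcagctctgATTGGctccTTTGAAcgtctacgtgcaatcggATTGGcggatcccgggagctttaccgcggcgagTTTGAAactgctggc
Cdk6: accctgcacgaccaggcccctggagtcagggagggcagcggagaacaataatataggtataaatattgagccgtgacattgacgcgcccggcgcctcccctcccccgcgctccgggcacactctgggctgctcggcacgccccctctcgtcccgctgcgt

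**Figure D1:**
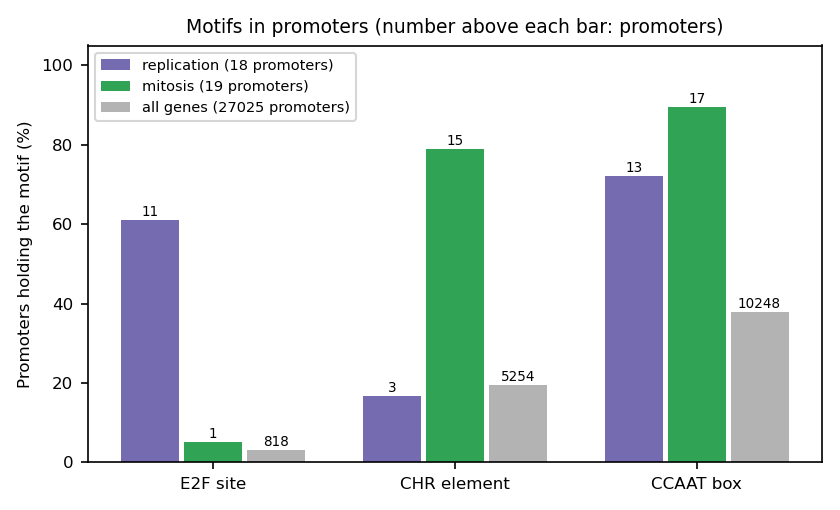
Share of promoters (%) that hold an E2F site, a CHR or a CCAAT box among replication members, mitosis members and all genes, with the number of promoters above each bar. The E2F bar is tall for replication members (61.1%) and the CHR bar for mitosis members (78.9%).

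At 3 days no member passed the edgeR quasi-likelihood test (Benjamini-Hochberg adjusted p below 0.05), and 8 of the 59 had an unadjusted p below 0.05, as had 13.6% of all genes tested, which is the members' share as well. Over all genes tested, 1.11% were called higher and 0.323% lower at that time. Fold changes are given as log2 of knockout over control with their standard error (SE). They ran from -0.41 (Cdk2) to 0.40 (Ube2c) with a median of 0.06, against a median of -0.03 over all genes. Of the 59 members 39 were above 0, against 9626 of the 20760 genes tested. No member separated the 7 knockout from the 7 control mice in either direction, and the share of all genes that did so at 3 days was not counted. The lowest adjusted p was 0.105, for Cdk2, the partner of cyclin E. The other members with an unadjusted p below 0.05 were Tk1 at -0.39 ± 0.13, Cdk6 at 0.35 ± 0.12, Cenpe at 0.35 ± 0.12, Ccnd2 at 0.30 ± 0.12, Ccnd1 at 0.37 ± 0.17, Mki67 at 0.26 ± 0.12 and Plk1 at 0.29 ± 0.14. An approximate 95% interval of the 3 day effect, from the SE and the normal distribution, left out the 7 day value for 56 members. Its bounds lay a median of 0.35 from the estimate. Intervals matched to the edgeR test would be somewhat wider, so the count could be lower. DESeq2 called 3 members at 3 days, Cdk6 and Cenpe higher and Cdk2 lower, where it called 3.36% of all genes higher and 1.57% lower. A single edgeR fit of all 26 libraries called Cdk6 alone, where 2.92% of all genes were called higher and 0.983% lower.

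At 7 days 50 members were lower and 3 were higher in knockout tissue, and 6 were not called. Over all 20259 genes tested 18.8% were called lower and 19.7% higher. The median of the 59 was -1.32, while that of all genes was -0.02. Of the replication members 22 of 23 fell and Rrm2 rose, of the mitosis members 23 of 25 fell, and of the G1/S regulators 5 of 6 fell. For 49 members every knockout mouse lay below every control mouse, which held for 11.6% of all genes, and for 2 members, Ccnd2 and Cdk6, every knockout mouse lay above, which held for 11% of all genes. Without the 3 knockout mice with B cell markers 49 members were lower and 2 higher, where 16.3% of all genes were called lower and 16.3% higher. Of the 59 members 23, among them all 5 D cyclins and partners, share at least 20 exon bases with another gene, and the study counted such reads as fractions for both genes with no strand setting stated, so they cannot be told apart. Of the 36 members with no such overlap 34 fell and 1, Rrm2, rose.

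**Figure D2:**
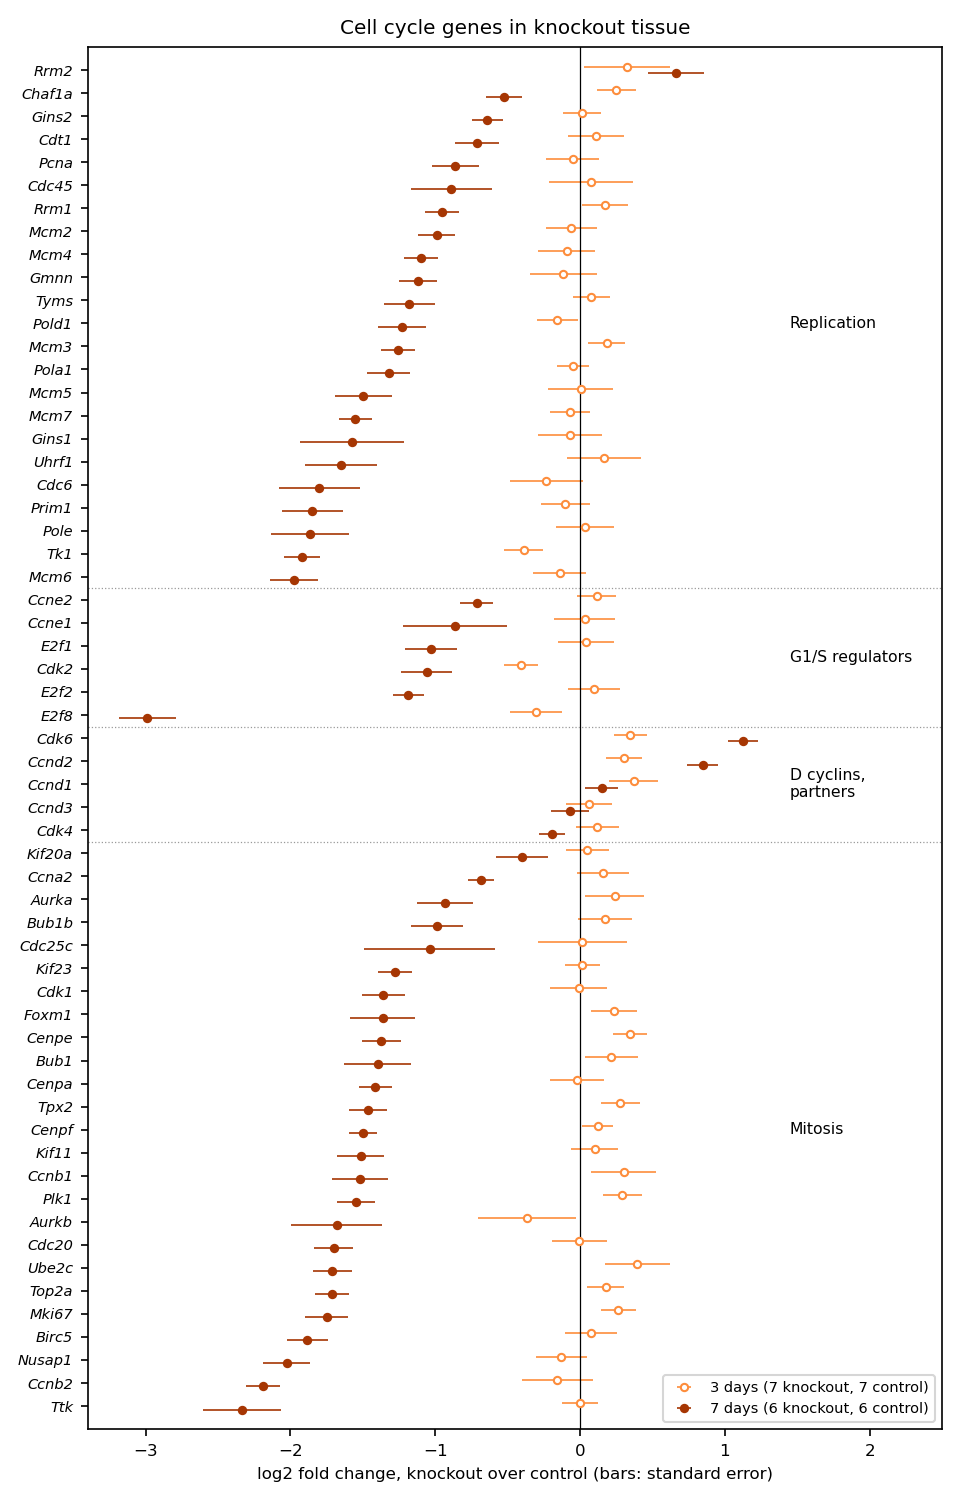
The log2 fold change of each of the 59 members, knockout over control, with its standard error, at 3 days (open points) and 7 days (filled points), ordered by class and by the value at 7 days. The open points lie between -0.41 and 0.40, and the filled points reach -2.99 for E2f8 and 1.13 for Cdk6.

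The 12 genes of origin licensing and the replicative helicase all fell at 7 days, by a median of 1.19 on the log2 scale. Mcm2 to Mcm7 are the 6 subunits of the ring-shaped helicase, and they did not move by the same amount: Mcm6 fell most at -1.98 ± 0.16 and Mcm2 least at -0.99 ± 0.13. Mcm2 ran from 25.8 to 54.9 CPM (median 49.8) in control and from 25 to 59.7 CPM (median 40.9) in knockout mice at 3 days. By 7 days it ran from 21.9 to 27.3 CPM (median 25.1) in control and from 10.2 to 16.3 CPM (median 11.3) in knockout mice. The groups overlapped fully at 3 days and were apart at 7 days (adjusted p = 5.31e-06). Mcm5 ran from 19.6 to 53.6 CPM (median 47.7) in control and from 21.9 to 58.9 CPM (median 34.6) in knockout mice at 3 days. At 7 days Mcm5 ran from 24.6 to 41.8 CPM (median 28.6) in control and from 4.91 to 13.7 CPM (median 11.8) in knockout mice, a log2 fold change of -1.50 ± 0.20 (adjusted p = 6.20e-06). The knockout mice at 7 days were thus below every other mouse in the series for Mcm5. Cdc6 loads the helicase onto DNA. Cdc6 lay at 3.49 to 8.23 CPM (median 7.07) in control and 2.56 to 8.73 CPM (median 5.74) in knockout mice at 3 days, and at 3.63 to 5.86 CPM (median 4.5) and 0.701 to 2.3 CPM (median 1.1) at 7 days. Its log2 fold change at 7 days was -1.80 ± 0.28 (adjusted p = 4.44e-05), with no overlap of the groups. Cdt1, the other loading factor, and its inhibitor geminin (Gmnn) both fell, Cdt1 by less. Cdt1 lay at 24.7 to 55.2 CPM (median 51.5) in control and 26.5 to 63.4 CPM (median 44.1) in knockout mice at 3 days, and at 23.5 to 45.9 CPM (median 35.5) and 16.2 to 23.2 CPM (median 22.5) at 7 days. Gmnn lay at 14.2 to 35.1 CPM (median 30.1) in control and 11.6 to 32.1 CPM (median 27.7) in knockout mice at 3 days, and at 23.7 to 34.7 CPM (median 31.9) and 12.5 to 17.5 CPM (median 13.2) at 7 days. Their log2 fold changes at 7 days were -0.71 ± 0.15 (adjusted p = 0.00104) and -1.12 ± 0.13 (adjusted p = 1.54e-06). Gins1 and Gins2, subunits of the GINS complex that activates the helicase, changed by -1.57 ± 0.36 and -0.64 ± 0.11, and Gse1, which shares exon bases with Gins2, also fell (log2 -0.91). Cdc45, the third part of the active helicase, changed by -0.89 ± 0.28 (adjusted p = 0.0169), and its groups overlapped. Without the 3 knockout mice with B cell markers Cdc45 stood at -0.78 and was not called (adjusted p = 0.0871).

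All 5 members of the polymerase group fell, with a median of -1.32. Pole, the catalytic subunit of the leading strand polymerase, and Prim1, the primase, moved most, at -1.87 ± 0.27 and -1.85 ± 0.21. Pola1 and Pold1, catalytic subunits of polymerases alpha and delta, stood at -1.32 ± 0.15 and -1.23 ± 0.16. Pcna, the sliding clamp that holds the polymerase on DNA, fell least of the group. Pcna lay at 8.33 to 21.5 CPM (median 15.6) in control and 11.8 to 16.3 CPM (median 13.4) in knockout mice at 3 days, and at 8.9 to 16 CPM (median 11.5) and 5.96 to 7.61 CPM (median 6.41) at 7 days. Its log2 fold change at 7 days was -0.86 ± 0.16 (adjusted p = 0.000287) with no overlap. Pola1 lay at 29.6 to 46 CPM (median 36.4) in control and 26.1 to 41.4 CPM (median 34.2) in knockout mice at 3 days, and at 16 to 26 CPM (median 18.6) and 5.87 to 9.1 CPM (median 8.3) at 7 days. Pola1 had the lowest adjusted p of edgeR among members between the control mice of both days (0.00308), at -0.54 ± 0.13 for day 7 over day 3.

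Nucleotide supply was the only replication group with members moving in both directions. Tyms, which makes thymidylate, and Tk1, which salvages thymidine, fell by 1.18 and 1.92 on the log2 scale. Tyms lay at 15.9 to 22.1 CPM (median 19.1) in control and 15.1 to 21.9 CPM (median 18.7) in knockout mice at 3 days, and at 11.5 to 15.2 CPM (median 12.8) and 3.33 to 8.08 CPM (median 6.08) at 7 days. For Tyms the knockout mice at 7 days lay below all other mice (adjusted p = 2.66e-05). Rrm1 and Rrm2 encode the large and the small subunit of ribonucleotide reductase, which makes deoxynucleotides. Rrm1 fell at -0.95 ± 0.12 (adjusted p = 2.56e-06), while Rrm2 rose at 0.66 ± 0.19 (adjusted p = 0.0113). Rrm2 lay at 3.23 to 26.5 CPM (median 13.8) in control and 9.25 to 21.9 CPM (median 17.9) in knockout mice at 3 days, and at 10.1 to 12.8 CPM (median 10.7) and 7.93 to 22.4 CPM (median 18.5) at 7 days. The rise was seen in 5 of the 6 knockout mice, since knockout mouse 2, at 7.93 CPM, lay below all 6 controls. Rrm2 was no longer called without the 3 knockout mice with B cell markers (0.45, edgeR adjusted p = 0.189) or in the fit of all 26 libraries (0.67, adjusted p = 0.067). Its change of effect between the days was not called (log2 0.36, adjusted p = 0.588). Chaf1a, a histone chaperone at the fork, and Uhrf1, which guides maintenance DNA methylation, fell by 0.52 and 1.65 on the log2 scale.

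E2f8 showed the largest change of the 59 members. It encodes an atypical E2F that represses E2F target genes late in S phase. E2f8 ran from 21.1 to 43.7 CPM (median 41.6) in control and from 18.6 to 33.7 CPM (median 30.9) in knockout mice at 3 days. At 7 days it ran from 18.3 to 22.5 CPM (median 20.2) in control and from 1.05 to 3.6 CPM (median 2.39) in knockout mice, a log2 fold change of -2.99 ± 0.20 (adjusted p = 9.78e-10). The highest knockout value at 7 days was thus far below the lowest control value, and Gm2788, which lies on the other strand and shares exon bases with it, also fell (log2 -3.69). The activators E2f1 and E2f2 fell by 1.03 and 1.18 on the log2 scale. E2f1 lay at 10.2 to 20.2 CPM (median 17.4) in control and 10.2 to 22.2 CPM (median 13.1) in knockout mice at 3 days, and at 7.28 to 11.3 CPM (median 7.56) and 3.33 to 5.04 CPM (median 3.93) at 7 days. E2f1 was also lower in control mice at 7 days than at 3 days, at -0.56 ± 0.17 (adjusted p = 0.016), and was lower still in knockout mice of day 7 (adjusted p = 0.000138). The E cyclins, which drive Cdk2 into S phase, differed in precision. Ccne1 lay at 3.49 to 8.84 CPM (median 6.24) in control and 4.03 to 7.22 CPM (median 6.09) in knockout mice at 3 days, and at 3.04 to 7.18 CPM (median 4.62) and 0.987 to 4.68 CPM (median 2.65) at 7 days. Ccne2 lay at 21.8 to 40.1 CPM (median 28.5) in control and 24.6 to 34.3 CPM (median 27.5) in knockout mice at 3 days, and at 19.9 to 27.1 CPM (median 25.1) and 13.3 to 17.1 CPM (median 14) at 7 days. Ccne2 fell at -0.71 ± 0.11 (adjusted p = 4.85e-05) without overlap, while Ccne1 stood at -0.86 ± 0.36 (adjusted p = 0.068) with overlapping groups and was not called. Ccne1 was called lower with DESeq2 and without knockout mouse 3 (-1.04), knockout mouse 6 (-1.13) or control mouse 2 (-0.99). Cdk2 stood at -1.06 ± 0.18, and Pmel, which shares exon bases with it, fell by more (log2 -1.44).

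No D cyclin or partner kinase was called lower at 7 days. They link growth signals to the cycle. Ccnd2 lay at 791 to 1128 CPM (median 1063) in control and 922 to 1364 CPM (median 1222) in knockout mice at 3 days, and at 588 to 698 CPM (median 627) and 907 to 1289 CPM (median 1167) at 7 days. Control mice had less Ccnd2 at 7 than at 3 days (adjusted p = 0.0466, and up to 0.0977 with 1 mouse left out), and knockout mice at 7 days were near the level of both genotypes at 3 days. The log2 fold change at 7 days was 0.85 ± 0.11 (adjusted p = 5.11e-06), and Gm43126, which lies on the other strand and shares exon bases with Ccnd2, rose by 1.05 on the same scale. Cdk6 lay at 124 to 196 CPM (median 163) in control and 156 to 242 CPM (median 183) in knockout mice at 3 days, and at 72.9 to 102 CPM (median 96.3) and 169.9 to 225 CPM (median 196) at 7 days. Cdk6 rose at 1.13 ± 0.10 (adjusted p = 7.33e-08), with all 6 knockout above all 6 control mice. Its level was likewise lower in control mice of day 7 than in those of day 3 (-0.46 ± 0.11, adjusted p = 0.0041). Ccnd1 lay at 168 to 225 CPM (median 192) in control and 149 to 365 CPM (median 209.8) in knockout mice at 3 days, and at 94.7 to 127 CPM (median 114) and 94.3 to 148 CPM (median 127) at 7 days. Ccnd1 was not called at 7 days, at 0.15 ± 0.11 (adjusted p = 0.335), although control mice had less of it at 7 days than at 3 days (-0.43 ± 0.11). Ccnd3 lay at 19.2 to 33.9 CPM (median 23.1) in control and 15.1 to 33.6 CPM (median 21.3) in knockout mice at 3 days, and at 12.8 to 19.9 CPM (median 13.4) and 11 to 16.9 CPM (median 13.3) at 7 days. Ccnd3 and Cdk4 were not called either, at -0.07 ± 0.13 and -0.19 ± 0.09 (edgeR adjusted p = 0.720 and 0.110). Approximate 95% intervals, from the SE and the normal distribution, ran from -0.33 to 0.19 and from -0.37 to -0.01. That of Cdk4 is slightly too narrow for the edgeR test, which gave an unadjusted p of 0.0506. Without control mouse 6 Cdk4 was called lower (-0.26, edgeR adjusted p = 0.0201).

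**Figure D3:**
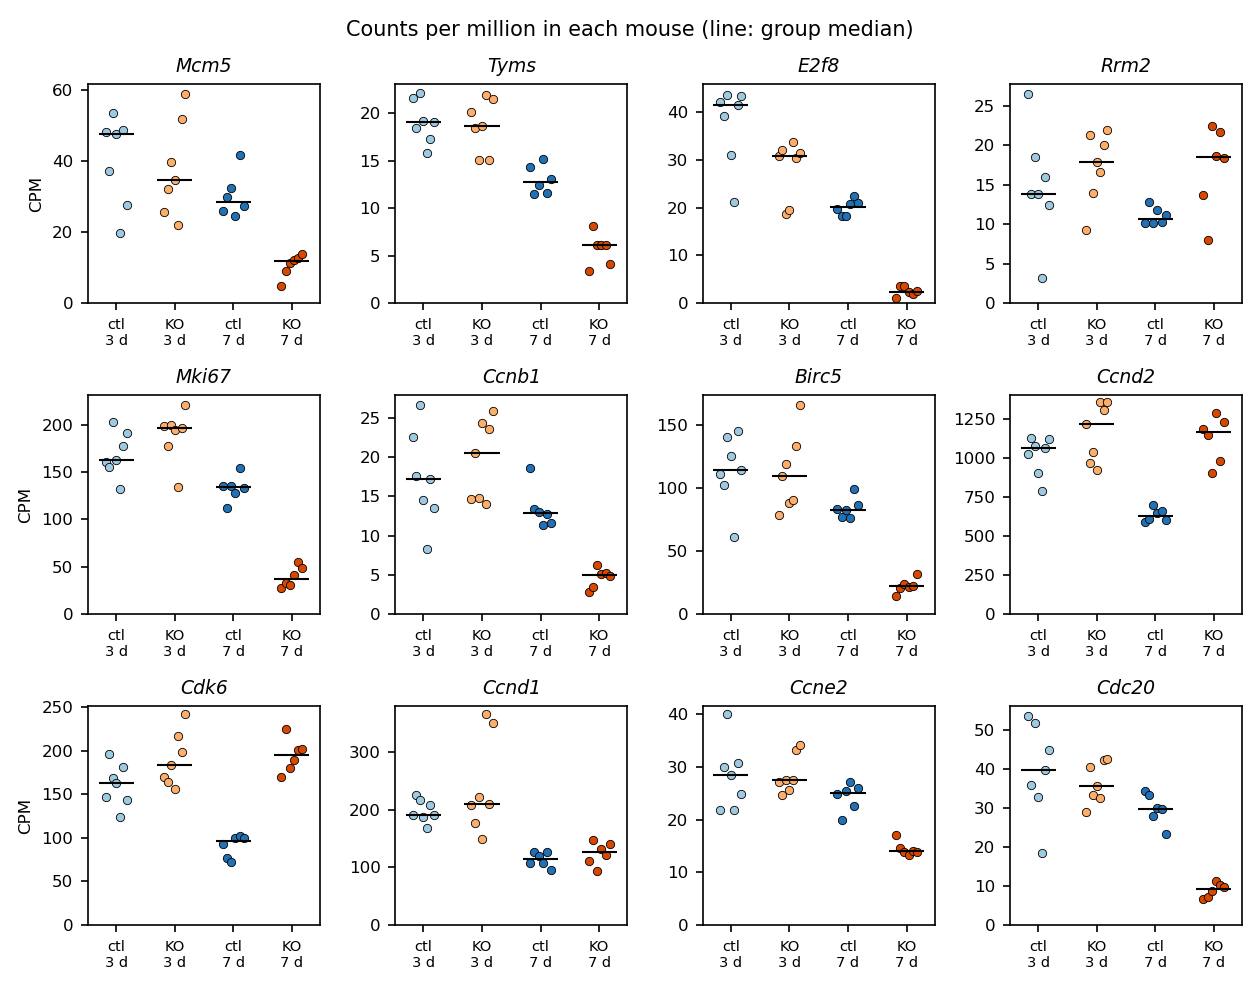
CPM of 12 members in each mouse, with control (ctl) and knockout (KO) mice at 3 and 7 days and the group median as a line, each panel starting at 0. Knockout mice at 7 days lie below all controls of that day for Mcm5, Tyms, E2f8, Mki67, Ccnb1, Birc5, Ccne2 and Cdc20, above them for Ccnd2 and Cdk6, and across them for Rrm2 and Ccnd1.

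Among the mitosis members the cyclins, Cdk1 and their regulators fell by a median of 1.36 on the log2 scale at 7 days, with 5 of 6 called. Ccna2, cyclin A2, which acts in S phase and in G2, fell least of those called, at -0.68 ± 0.09. The B cyclins, partners of Cdk1 at mitotic entry, fell by more. Ccnb1 lay at 8.33 to 26.7 CPM (median 17.3) in control and 14.1 to 25.8 CPM (median 20.5) in knockout mice at 3 days, and at 11.4 to 18.6 CPM (median 12.9) and 2.8 to 6.26 CPM (median 4.97) at 7 days. Ccnb2 lay at 22.8 to 53 CPM (median 43.8) in control and 18.1 to 52.2 CPM (median 38.7) in knockout mice at 3 days, and at 33 to 44.8 CPM (median 35.5) and 6.31 to 9.78 CPM (median 7.5) at 7 days. Their log2 fold changes were -1.52 ± 0.19 (adjusted p = 3.95e-06) and -2.19 ± 0.12 (adjusted p = 5.79e-11), the latter being the lowest adjusted p of any member. Cdk1 lay at 29 to 57.4 CPM (median 39.6) in control and 23.1 to 54.9 CPM (median 38.6) in knockout mice at 3 days, and at 24.1 to 34.8 CPM (median 31.2) and 7.77 to 16.2 CPM (median 11.7) at 7 days. Cdk1 fell at -1.36 ± 0.15 (adjusted p = 6.13e-07), and Foxm1, a transcription factor of G2/M genes, by the same 1.36 on the log2 scale. Foxm1 lay at 8.33 to 13.9 CPM (median 10.3) in control and 9.04 to 14.8 CPM (median 11) in knockout mice at 3 days, and at 5.59 to 11.7 CPM (median 8.68) and 2.11 to 4.68 CPM (median 3.23) at 7 days. The Foxm1 groups did not overlap at 7 days (adjusted p = 7.89e-05). Cdc25c, a phosphatase that activates Cdk1, had few counts and was not called, at -1.04 ± 0.45 (edgeR adjusted p = 0.0796). It was called lower by the DESeq2 Wald test with all mice (-1.08, adjusted p = 0.044) and by edgeR without knockout mouse 5 (-1.33).

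All 7 mitotic kinases and checkpoint genes fell, with a median of -1.55. Ttk, the kinase that starts the spindle checkpoint, moved most. Ttk lay at 15.3 to 20.4 CPM (median 17.8) in control and 11.8 to 20.1 CPM (median 17.2) in knockout mice at 3 days, and at 8.8 to 16.7 CPM (median 11.5) and 1.23 to 3.79 CPM (median 1.86) at 7 days. Its log2 fold change was -2.34 ± 0.27 (adjusted p = 1.23e-06). Plk1 lay at 47.4 to 73 CPM (median 56.3) in control and 48.5 to 84.4 CPM (median 68.4) in knockout mice at 3 days, and at 38.9 to 44.4 CPM (median 41.9) and 10.2 to 17.2 CPM (median 14.7) at 7 days. Plk1, the Polo kinase of mitotic entry and exit, was not called at 3 days (adjusted p = 0.359) and fell at -1.55 ± 0.13 at 7 days (adjusted p = 2.15e-08). Plk1 shares exon bases with Gm44985, which also fell (log2 -1.09). Aurkb lay at 3.23 to 13.9 CPM (median 7.63) in control and 2.44 to 8.73 CPM (median 6.66) in knockout mice at 3 days, and at 2.82 to 10.8 CPM (median 6.3) and 1.32 to 2.65 CPM (median 1.76) at 7 days. Aurkb, the kinase of the chromosomal passenger complex, fell at -1.68 ± 0.31 (adjusted p = 0.000285). Birc5 lay at 61.3 to 145 CPM (median 114) in control and 78.2 to 166 CPM (median 109) in knockout mice at 3 days, and at 76.2 to 98.8 CPM (median 82.7) and 14.5 to 31.9 CPM (median 22.1) at 7 days. Birc5, survivin, is its partner in that complex and fell at -1.88 ± 0.14 (adjusted p = 6.58e-09). Aurka, Bub1 and Bub1b fell by 0.94, 1.40 and 0.99 on the log2 scale.

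Both APC/C genes fell by nearly the same amount, Cdc20, its activator, at -1.70 ± 0.14 (adjusted p = 1.32e-08) and Ube2c, its ubiquitin-conjugating enzyme, at -1.71 ± 0.14 (adjusted p = 1.21e-08). Cdc20 lay at 18.5 to 53.6 CPM (median 39.6) in control and 28.9 to 42.4 CPM (median 35.5) in knockout mice at 3 days, and at 23.4 to 34.4 CPM (median 29.7) and 6.57 to 11.1 CPM (median 9.27) at 7 days. Ube2c lay at 29.3 to 93.5 CPM (median 68.5) in control and 46.2 to 113 CPM (median 94.4) in knockout mice at 3 days, and at 45.3 to 64.3 CPM (median 54.7) and 10.6 to 20.5 CPM (median 15.5) at 7 days. At 3 days the knockout median of Ube2c was above that of the controls and that of Cdc20 was below it, with overlapping groups for both.

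Of the 10 genes of chromosomes, centromere and spindle 9 fell, with a median of -1.48. Mki67 lay at 133 to 203 CPM (median 163) in control and 134 to 221 CPM (median 197) in knockout mice at 3 days, and at 112 to 155 CPM (median 134) and 27.9 to 54.6 CPM (median 36.8) at 7 days. Mki67, which encodes the proliferation antigen Ki67, fell at -1.75 ± 0.15 (adjusted p = 2.92e-08) after a 3 day value of 0.26 ± 0.12 (adjusted p = 0.342). Top2a lay at 395 to 722 CPM (median 591) in control and 545 to 738 CPM (median 588) in knockout mice at 3 days, and at 319 to 412 CPM (median 367) and 81.6 to 133 CPM (median 113) at 7 days. Top2a, topoisomerase II alpha, fell at -1.71 ± 0.12 (adjusted p = 1.98e-09). Cenpa lay at 27.7 to 70.5 CPM (median 55) in control and 28.6 to 63.2 CPM (median 48.1) in knockout mice at 3 days, and at 33.2 to 38.3 CPM (median 35.8) and 10.3 to 16.3 CPM (median 12.6) at 7 days. Cenpa, the centromeric histone, fell at -1.41 ± 0.11 (adjusted p = 1.48e-08), close to the kinetochore proteins Cenpe and Cenpf at -1.37 ± 0.13 and -1.50 ± 0.10. Nusap1, a spindle protein, fell most of the group, at -2.03 ± 0.16, and Oip5, which shares exon bases with it, also fell (log2 -0.85). Among the kinesins Kif11 and Kif23 fell by 1.52 and 1.28 on the log2 scale, while Kif20a stood at -0.40 ± 0.18 (adjusted p = 0.0856) and was not called. Without knockout mouse 4 or without control mouse 5 Kif20a was called lower (-0.49 and -0.52). Kif20a shares exon bases with Cdc23, which itself was not called (log2 -0.22). Tpx2, which activates Aurka on the spindle, fell by 1.46 on the log2 scale.

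Replication and mitosis genes were then set against each other by averaging, in every animal, log2 CPM over the members of a class (the class score). At 3 days the replication score was 4.40 ± 0.17 (SD, n = 7) in knockout and 4.41 ± 0.27 (SD, n = 7) in control mice, and the mitosis score 5.18 ± 0.25 and 5.08 ± 0.25. At 7 days the replication score was 3.08 ± 0.11 (SD, n = 6) against 4.23 ± 0.10, and the mitosis score 3.47 ± 0.20 against 4.90 ± 0.07. Both scores thus differed between the genotypes at 7 days by far more than the spread between mice, by -1.15 for replication and -1.43 for mitosis, and by -0.01 and 0.10 at 3 days. The difference between the 2 scores, mitosis minus replication, ran from 0.26 to 0.49 in knockout mice and from 0.53 to 0.72 in control mice at 7 days, with no overlap. At 3 days it ran from 0.61 to 0.97 and from 0.57 to 0.78, with overlap and a higher knockout mean (0.78 against 0.67). Control mice held the same mean difference at both days, 0.67 and 0.67. By gene, the median change at 7 days was -1.23 for replication members and -1.50 for mitosis members, and the ranges of those that fell overlapped, from -1.98 to -0.52 and from -2.34 to -0.68. The knockout minus control value of that difference was -0.28 at 7 days, and -0.26 with the 6 G1/S regulators counted as replication genes.

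**Figure D4:**
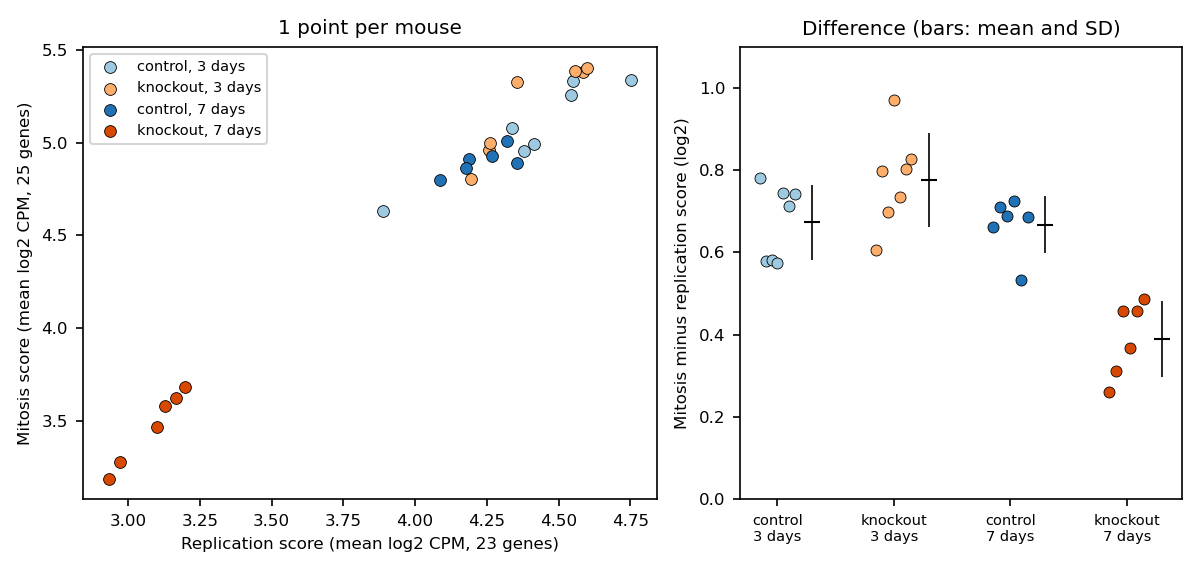
Left, replication score against mitosis score (mean log2 CPM of 23 and 25 members), 1 point per mouse. Right, mitosis minus replication score per mouse with mean and SD; knockout mice at 7 days sit between 0.26 and 0.49, below the 0.53 to 0.72 of their controls, and the 4 groups hold 7, 7, 6 and 6 mice.

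The change of the genotype effect between the days was tested in 1 fit over all 26 libraries. It was called lower for 48 members and higher for 2, and over all genes 9.07% were called lower and 7.96% higher. Of the replication members 21 of 23, of the mitosis members 22 of 25 and of the G1/S regulators 5 of 6 were lower. E2f8 changed most, at -2.66 ± 0.28 (adjusted p = 7.64e-08), followed by Ttk at -2.31 ± 0.29 (adjusted p = 1.18e-06) and Ube2c at -2.08 ± 0.28 (adjusted p = 4.36e-06). Cdk6 at 0.80 ± 0.15 (adjusted p = 0.000318) and Ccnd2 at 0.57 ± 0.16 (adjusted p = 0.0148) were the 2 that changed upwards, and the Ccnd2 call was lost with the replicate number as a block (0.57, edgeR adjusted p = 0.0705) and without the 6 libraries with B cell markers (0.55, adjusted p = 0.0999). The 9 members not called were Cdc45, Rrm2, Ccne1, Ccnd1, Ccnd3, Cdk4, Cdc25c, Aurkb and Kif20a. Of these Aurkb was called lower by the DESeq2 Wald test (-1.33, adjusted p = 0.0404) and by edgeR with some single mice left out. The median change was -1.23 for replication and -1.60 for mitosis members, against 0.03 over all genes. Without the 6 libraries with B cell markers 44 members were lower and 1 higher, where 7.14% of all genes were called lower and 4.65% higher.

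Control mice alone differed between the days for 14 members, 12 lower and 2 higher at 7 days, in a comparison where 16.3% of all genes were called lower and 19.7% higher. Higher were Gmnn at 0.50 ± 0.18 (adjusted p = 0.0365) and Gins2 at 0.42 ± 0.11 (adjusted p = 0.0088). The Gmnn call was lost with the DESeq2 size factors, with filterByExpr, in the fit of all 26 libraries (adjusted p = 0.052, 0.0691 and 0.0778 in edgeR) and with any of 7 single mice left out, and its value was 0.33 without control mouse 5 of day 3. Lower were E2f1, Pola1 and E2f8, at -0.56, -0.54 and -0.53, then Rrm1, Mcm2, Cdk6, Mcm7, Bub1b, Ccnd1, Mcm3, Kif23 and Ccnd2. None reached a 2-fold change. Gins2 lay at 19.2 to 27.1 CPM (median 23.4) in control and 18.2 to 29.5 CPM (median 22.3) in knockout mice at 3 days, and at 20.7 to 28.2 CPM (median 25.2) and 12.2 to 17.1 CPM (median 16.1) at 7 days. The count of members called ran from 10 to 22 with each mouse left out. It was highest without control mouse 5 of day 3, which carried stomach and Brunner gland markers. Without that mouse 22 members were called, 21 of them lower, where 18.6% of all genes were called lower and 17.9% higher. In the same comparison all 12 villus enterocyte markers were higher and all 8 smooth muscle markers lower at 7 days (medians 2.29 and -0.96). The part of that difference in the members' values was not tested. Nor can the day be told apart from a batch that coincides with it.

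**Figure D5:**
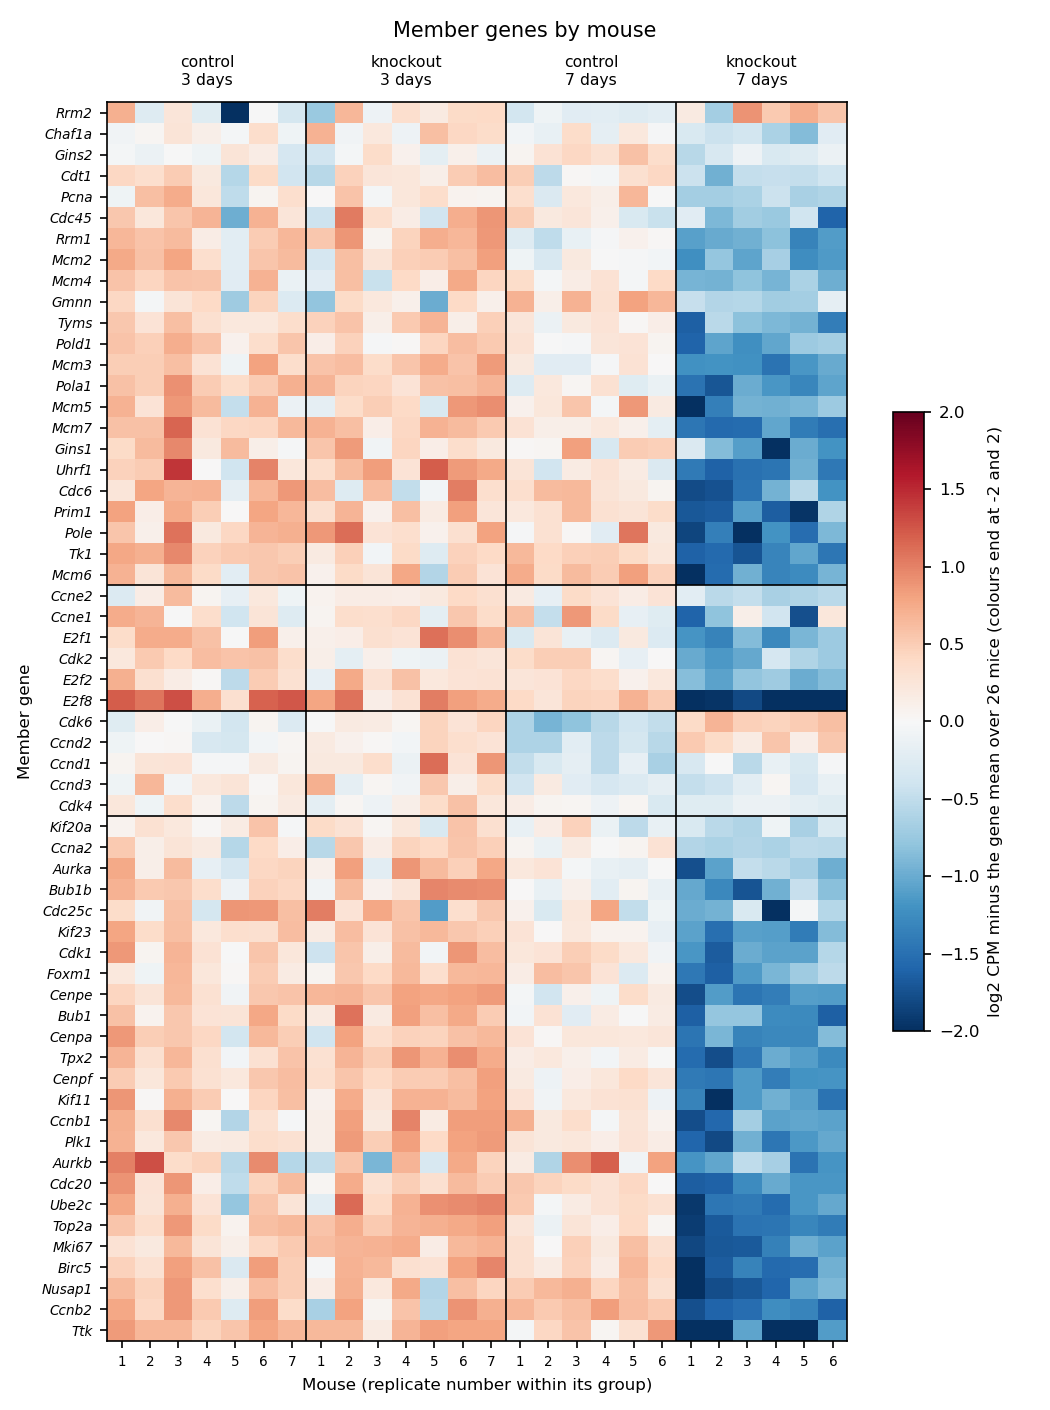
Log2 CPM of each member (rows, by class and by the change at 7 days) in each of the 26 mice (columns, by group), minus the mean of that gene over all mice, in colours that end at -2 and 2. The 6 knockout mice of day 7 are blue for nearly all rows but Rrm2 and the D cyclin class, and control mouse 5 of day 3 is pale or blue in many rows.

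Other genes of the same steps, listed apart from the 59, followed at 7 days. Of 50 further replication genes 33 fell and 5 rose, and of 69 further mitosis genes tested 61 fell and 1 rose. Their medians were -0.77 and -1.22. Over all genes tested at 7 days 18.8% were called lower and 19.7% higher. The largest falls among the further genes were those of Cdca3, a trigger of mitotic entry (-2.75 ± 0.13), and Spc24, a kinetochore subunit (-2.27 ± 0.15). Cdca3 lay at 16.4 to 63.3 CPM (median 45.6) in control and 21.9 to 51.6 CPM (median 35.6) in knockout mice at 3 days, and at 31 to 41.6 CPM (median 35.9) and 4.14 to 6.16 CPM (median 5.48) at 7 days. Pold4, a small subunit of polymerase delta, rose at 1.62 ± 0.21 and its groups did not overlap. Pold4 lay at 2.57 to 5.67 CPM (median 4.17) in control and 2.59 to 9.87 CPM (median 4.41) in knockout mice at 3 days, and at 2.5 to 7.02 CPM (median 4.78) and 13 to 20.8 CPM (median 14.4) at 7 days. Pole4, a small subunit of polymerase epsilon, also rose (1.07 ± 0.14), and both rises were called for the change between the days. At 3 days Dbf4, the activator of the replication kinase Cdc7, and Smc2, a condensin subunit, were called higher, at 0.69 ± 0.15 (adjusted p = 0.0293) and 0.53 ± 0.11 (adjusted p = 0.025). They were 1 of the 50 and 1 of the 69 genes, where 1.11% of all genes were called higher and 0.323% lower. Between the control mice Timeless, Ncaph and Pole2 were lower at 7 than at 3 days (-0.78, -0.74 and -0.66).

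Of the 10 CDK inhibitors and pocket proteins 2 rose and 4 fell at 7 days, where 19.7% of all genes were called higher and 18.8% lower. Cdkn1a, which encodes the CDK inhibitor p21, rose most of the genes named at 7 days, and it was already higher at 3 days. Cdkn1a lay at 53.8 to 194 CPM (median 102) in control and 75.5 to 685 CPM (median 322) in knockout mice at 3 days, and at 192 to 384 CPM (median 330.4) and 884 to 1184 CPM (median 1010.1) at 7 days. The log2 fold change was 1.82 ± 0.36 at 3 days (adjusted p = 0.015) and 1.79 ± 0.18 at 7 days (adjusted p = 1.72e-07). At 3 days the groups overlapped. Knockout mouse 1, which carried stomach and Brunner gland markers, lay at 75.5 CPM inside the control range, and the other 6 lay above it. Control mice also had more Cdkn1a at 7 than at 3 days (1.81 ± 0.25, adjusted p = 6.07e-05). Rb1, the retinoblastoma protein, rose at 0.65 ± 0.12 (adjusted p = 0.00035), whereas its relatives Rbl1 and Rbl2 fell at -0.68 ± 0.17 and -0.63 ± 0.11. The inhibitors Cdkn1c and Cdkn2c fell at -1.33 ± 0.20 and -2.05 ± 0.24. Cdkn1b, Cdkn2a, Cdkn2b and Cdkn2d were not called at 7 days (0.23, 0.77, 0.14 and -0.26), with Cdkn2a near 0 CPM in most mice. Cdkn2b was higher in control mice of day 7 than in those of day 3 (1.33 ± 0.25).

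The remaining E2F factors and their partners split by member. E2f3, an activator like E2f1 and E2f2, rose while those fell. E2f3 lay at 15.6 to 31.7 CPM (median 26.6) in control and 25 to 35 CPM (median 34.2) in knockout mice at 3 days, and at 16.4 to 21.4 CPM (median 17.8) and 48.4 to 58.9 CPM (median 52.6) at 7 days. Its log2 fold change was 1.55 ± 0.10 at 7 days (adjusted p = 1.41e-09) with no overlap of the groups, and the change between the days was called (adjusted p = 1.47e-05). E2f7, atypical like E2f8, fell at -1.40 ± 0.23. Tfdp1 and Tfdp2, the DP partners of E2F factors, fell at -0.61 ± 0.20 and -0.90 ± 0.09. E2f4, E2f5 and E2f6 were not called, at 0.02, -0.23 and 0.45.

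Markers of cell types moved at 7 days beside the members, where 18.8% of all genes were called lower and 19.7% higher. The summed level of 10 epithelial markers was 3342 to 3878 CPM in knockout and 4339.8 to 5329 CPM in control mice, with a median log2 fold change of -0.39 over the 10, 6 lower and 1 higher. Of 14 crypt stem cell markers 6 fell and 3 rose (median -0.48, summed level 437 to 558 against 726 to 1119 CPM). Of 12 villus enterocyte markers 11 fell (median -2.21), of 8 T cell markers 6 fell (median -1.10), of 8 smooth muscle markers none was called (median 0.06), and of 8 B cell markers tested 5 rose and 1 fell. Of 9 Paneth cell markers tested 1 fell, and of 6 pancreatic acinar markers tested none was called. Of 4 stomach and Brunner gland markers tested 3 fell, with their highest summed level in control mouse 2. None of the epithelial, crypt, villus, T cell or smooth muscle markers was at 0 throughout a group. Of the 50 falls among the members 39 were at least 2-fold, and the share of all genes with such a fall was not counted. The part of the marker shifts in the members' values was not tested.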

How the data were processed

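Estimated counts per gene were deposited by the authors for 26 libraries of proximal small intestine, 1 per mouse. Per the labels and the study's methods, reads were trimmed with cutadapt 2.10, aligned to GRCm38 with Subread and counted on exons with featureCounts 2.0.1, with reads over several genes shared as fractions and no strand setting stated, so 95.0% of values are whole and overlapping genes cannot be told apart. All 26 columns were mapped by title. In the study, controls were Cre-negative littermates. Which mice shared a litter or a run is not given in the sources used here, so p-values measure the spread between these mice.

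Counts were rounded and tested with edgeR 4.0.16 (TMM scaling, quasi-likelihood test, Benjamini-Hochberg adjustment at 0.05) in R 4.3.3, for each day over its own mice, for the control mice of both days, and for the change of the effect over 26 libraries. As in the study, genes with a count of 0 in more than 50% of the mice of either group were left out. All 59 members passed at both days. Scores are mean log2 CPM per mouse (TMM, prior count 2) and carry no test. The scripts were tested on simulated counts with known changes. The planned design took the values for counts, and the deposited ones are estimated counts.

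The members, the gene lists and the genes to be described were chosen with earlier results of these data known. Values are given for 26 selected members and for the 3 largest rises and falls of each comparison. Other pathway genes are named by the same rule, with all CDK inhibitors, pocket proteins and E2F factors. Some genes, the targeted gene among them, are not reported here. The labels do not say whether replicate numbers pair the mice, and the main fits took the mice as unpaired. Same-numbered mice of both genotypes deviated together (r above 0.1) in 2 of 7 pairs at 3 days and 2 of 6 at 7 days. The highest r was 0.29 and 0.23, which cannot decide whether they are pairs. The deposited CPM table repeats the counts and was not used. Gene models were GENCODE M21 and promoters RefSeq GRCm38.p6, with the first listed window of each gene. DESeq2 1.42.0, other scalings, filters, a fold threshold, the replicate block and each mouse left out were tried as alternatives. Leaving out the libraries with B cell markers was added after seeing the data. So was leaving out knockout mouse 1 and control mouse 5 of day 3, which carried stomach and Brunner gland markers. Control mouse 2 of day 7 was left out only as a single mouse.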

Additional observations from a re-analysis of the deposited data

Results flagged for a closer look

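The genotype effect differed between 3 and 7 days by the test of the difference itself for 48 members that changed downwards and 2 that changed upwards, among them 21 replication members, 22 mitosis members and 5 G1/S regulators. The largest of these differences were -2.66 for E2f8, -2.31 for Ttk and -2.08 for Ube2c, and the upward ones were 0.80 for Cdk6 and 0.57 for Ccnd2, all on the log2 scale with edgeR. That of Ccnd2 was not called with the replicate block or without the libraries with B cell markers.

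Single mice stood apart from their group in 9 of the 140 groups of values looked at, where chance gives about 1 in 20. The number after each value below is the gap to the nearest mouse over the range of the group. At 7 days knockout mouse 2 was low for Cdt1 at 16.2 CPM (0.692), knockout mouse 6 high for Gmnn at 17.5 CPM (0.729), knockout mouse 1 high for Ccne2 at 17.1 CPM (0.663) and low for Gins2 at 12.2 CPM (0.672). Among control mice of that day mouse 2 was high for Ccnd3 at 19.9 CPM (0.733), mouse 1 high for Ccnb1 at 18.6 CPM (0.710), and mouse 5 low for the mitosis minus replication score at 0.53 (0.674). At 3 days control mouse 2 was high for Ccnd3 at 33.9 CPM (0.625) and control mouse 5 low for Cenpa at 27.7 CPM (0.604).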

How the results depend on the processing

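The members called at 3 days were 0 with edgeR, 3 with DESeq2 and 1 with all 26 libraries in 1 fit, and 0 with any mouse left out. Over all genes DESeq2 called 3.36% higher and 1.57% lower at 3 days, and the fit of all 26 libraries 2.92% and 0.983%. Those called at 7 days ran from 53 to 54 with each mouse left out, and those called for the change between the days from 48 to 51. With the replicate number as a block the counts were 0 at 3 days, 54 at 7 days and 48 for the change between the days, where Cdk2 and Ccnd2 lost their call. Members called between the control mice ran from 10 to 22 with each mouse left out, reached 22 without control mouse 5 of day 3 and were 0 with a 2-fold threshold. With the median in place of the mean of the members, the knockout minus control value at 7 days was -1.59 for the mitosis score and -0.39 for mitosis minus replication, against -1.43 and -0.28. The last ran from -0.30 to -0.25 with each mouse left out. Of the gene values tried at 7 days, 1 reversed: Ccnd3, never called, ran from -0.14 to 0.0034 with each mouse left out, the upper value without control mouse 2. Another 1105 kept direction and side of the threshold, 11 gained a call and 3 lost it, Cdc45 without the B cell marker libraries (-0.78) and Rrm2 without them (0.45) or in the fit of all libraries (0.67). Ccne1 gained a call under 6 alternatives. For the change between the days Cdt1 lost its call in 9 of its alternatives, with an adjusted p of up to 0.0659 with 1 mouse left out, and Cdk2 lost it without knockout or control mouse 2 of day 7. Between the control mice the calls of Mcm3, Gmnn, Kif23 and Ccnd2 were lost with single mice left out. Their adjusted p in edgeR then reached 0.0791, 0.0801, 0.0671 and 0.0977. The Gmnn call was also lost under 3 other settings and the Ccnd2 call with no filter on low counts. Some members rest on few counts, among them Cdc25c, Gins1, Cdc45, Cdc6, Ccne1 and Uhrf1, which limits their precision. The causes of these shifts were not tested.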
